A study of Mus musculus with 8 samples.

Results

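The sarcomere is the contractile unit of striated muscle, in which thick filaments of myosin slide past thin filaments of actin. Calcium released in each beat binds troponin C, which moves tropomyosin and opens the actin filament to myosin. Thin filaments are anchored at the Z-disc, thick filaments are crosslinked at the M-band, titin spans from one to the other, and costameres and intercalated discs tie the whole to the cell membrane. Digoxin is a cardiac glycoside that inhibits the sodium pump Na/K-ATPase and raises calcium in the beating cardiomyocyte, which strengthens contraction. The genes described here are 37 genes of the thick filament and M-band (10 genes), the thin filament (10 genes), titin and the Z-disc (14 genes), and desmin with the costameric Xin-repeat genes (3 genes). They were taken from a list of names and make up 37 of the 22180 genes measured on probe sets with exactly 1 gene symbol. All 37 were measured, and no filter on low values was applied.

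Hearts came from male wild-type mice of 8 to 10 weeks, labelled C57BL6JRj. Mice received 1 intraperitoneal injection at ZT5 (ZT0 is lights-on), with digoxin (1 mg/kg) or with its vehicle, a mixture of ethanol, propylene glycol, citric acid and sodium phosphate, and were killed at ZT9. Affymetrix Mouse Gene 2.0 ST arrays were used, 1 per heart sample, for 5 samples of the digoxin group and 3 of the vehicle group. The design text counts 4 sham samples, while values were available for 3, labelled vehicle. Nothing in the labels says whether a sample is 1 mouse, so a p-value reflects only how far these samples spread, which may be technical.

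Each probe set's log2 expression was deposited in centred form. They compare arrays for 1 gene and give no level of a gene, so the presence of cardiac markers could not be checked and no gene's level was set against another's. Vehicle replicate 3 stood apart, with an interquartile range of 0.216 over all probe sets against 0.0792 to 0.115 on the other arrays. All 9 measured markers of atrial cardiomyocytes had lower means in digoxin hearts, and Nr2f2, a transcription factor of atrial identity, fell by 0.48 on the log2 scale (limma, SE 0.09, adjusted p = 0.0467). Leaving out 1 array ended that call in 7 of 8 fits and kept it where vehicle replicate 3 was omitted; the highest adjusted p, 0.127, came from omitting digoxin replicate 5. The other 8 atrial markers did not pass (adjusted p of 0.437 or more in limma). The mean of the atrial markers ran from -0.40 to 1.54 on the digoxin arrays and from 0.26 to 2.16 on the vehicle arrays. Nr2f2 did not follow this mean on every array. It read 0.09 on digoxin replicates 3 and 4, where the mean was 0.93 and 1.54. The part of the atrial markers in the results below was not tested. A fit that takes their mean as a covariate is given beside the main result. In whole hearts, fewer cells of a type and less RNA per cell cannot be told apart.

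Promoters of the sarcomeric actin genes are shown because many sarcomere genes are targets of serum response factor, which binds the CArG box. Its coactivators, the myocardin-related factors, are described with the other genes below. RefSeq promoter windows (GRCm38.p6, 250 bases before to 50 after an annotated start) matched 32 of the 37 genes. The stretches below are the 250 bases before the start of Actc1 (chr2:114052876-114053125, minus strand) and of Acta1 (chr8:123894776-123895025, minus strand), read 5′ to 3′ on the gene's strand, with CArG boxes in capitals.
Actc1: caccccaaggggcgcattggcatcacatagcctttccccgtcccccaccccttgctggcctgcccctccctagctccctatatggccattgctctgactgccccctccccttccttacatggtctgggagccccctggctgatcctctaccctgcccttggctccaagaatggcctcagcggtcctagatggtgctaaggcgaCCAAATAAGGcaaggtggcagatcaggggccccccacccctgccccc
Acta1: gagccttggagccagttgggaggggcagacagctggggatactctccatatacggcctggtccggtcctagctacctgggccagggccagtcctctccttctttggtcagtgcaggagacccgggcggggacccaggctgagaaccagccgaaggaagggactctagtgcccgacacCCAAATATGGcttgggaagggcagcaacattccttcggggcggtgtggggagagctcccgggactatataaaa
The box lay at bases -47 to -38 from the annotated start in Actc1 and at bases -73 to -64 in Acta1.

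A CArG box on either strand was found in 7 of the 32 matched genes (21.9%), against 1.81% of 27025 genes with such windows. Beside both actins these were Fhl1, Fhl2, Ldb3, Myl3 and Myom1. Windows of 30 bases around the box are given for 3 of them, 1 from each of the thick filament, the M-band and the Z-disc.
Myl3: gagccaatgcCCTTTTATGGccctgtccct
Myom1: gccttcctggCCATAAAAGGctggctgtgg
Ldb3: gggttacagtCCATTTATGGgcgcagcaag
These windows are chr9:110763583-110763612 (plus strand), chr17:71019448-71019477 (plus strand) and chr14:34588697-34588726 (minus strand). A site of the muscle factor MEF2 was found in 7 of the 32 genes (21.9%), against 3.70% of all, in Fhl2, Mybpc3, Myom3, Myoz2, Synpo2l, Ttn and Xirp2. The MEF2 windows of the giant spring gene Ttn (chr2:76982694-76982723, minus strand) and of Myom3 (chr4:135759670-135759699, plus strand) show its form.
Ttn: ttctgaaaggCTAAATTTAGcactgccaat
Myom3: ctcagcgctgCTATATTTAAgacggttaca
The motif CATTCC, read by TEAD factors, was found in 13 of 32 genes (40.6%, against 16.6% of all) and TATAAA in 7 (21.9%, against 15.7%). The glucocorticoid receptor core AGAACA was found in 8 genes (25.0%, against 21.3%), and its inverted repeat with a spacer of 3 bases in 0 of 32, against 0.0111% of all. The clock motif CACGTG was found in Actn2 and Myh7b (6.25%, against 8.09% of all). Motifs were searched on both strands in all windows of a gene, and the repeat contains the core. A match is a description of these letters and no measured binding.

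The design asks what a cardiac glycoside does to heart transcripts within hours. None of the 37 sarcomere genes passed the test at ZT9 after digoxin given at ZT5. In limma, with an adjusted p under 0.05 over all 22180 genes, 0 of 37 rose and 0 fell, while 1.36% of all genes changed (0.947% rose and 0.415% fell). The lowest adjusted p of a member was 0.202, in Lmod2. At an unadjusted p under 0.05 there were 7 of 37 (18.9%) against 12.3% of all genes, Lmod2, Xirp1, Myh7b and Myot with higher and Myl2, Synpo2l and Tpm1 with lower means in digoxin hearts. The arrays of the 2 groups did not overlap in 3 of 37 genes (8.11%), against 8.16% of all genes. The count past the adjusted test stayed at 0 without vehicle replicate 3, without digoxin replicate 4, without both, and when the mean of the atrial markers was added to the model. It was 1 with array weights, where Xirp1 passed (log2 change 0.27, adjusted p = 0.0490).

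The size of the change was bounded for most of the 37 genes. The median log2 change over the 37 genes was 0.0047, beside -0.01 over all genes, with 20 means higher and 17 lower in digoxin hearts. Single changes ran from -0.28 (Myl2) to 0.35 (Myot). For 34 of 37 genes the 95% interval of the change lay within 1.5-fold either way (0.585 on the log2 scale), as it did for 96.1% of all genes. The other 3 were Myh7, Tpm2 and Myot, whose values spread widely between arrays. An interval within this bound does not mean no change. Mrtfb, which passed the test and is described below, had an interval of 0.205 to 0.511. The median residual SD was 0.08 over the members and 0.10 over all genes.

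**Figure D1:**
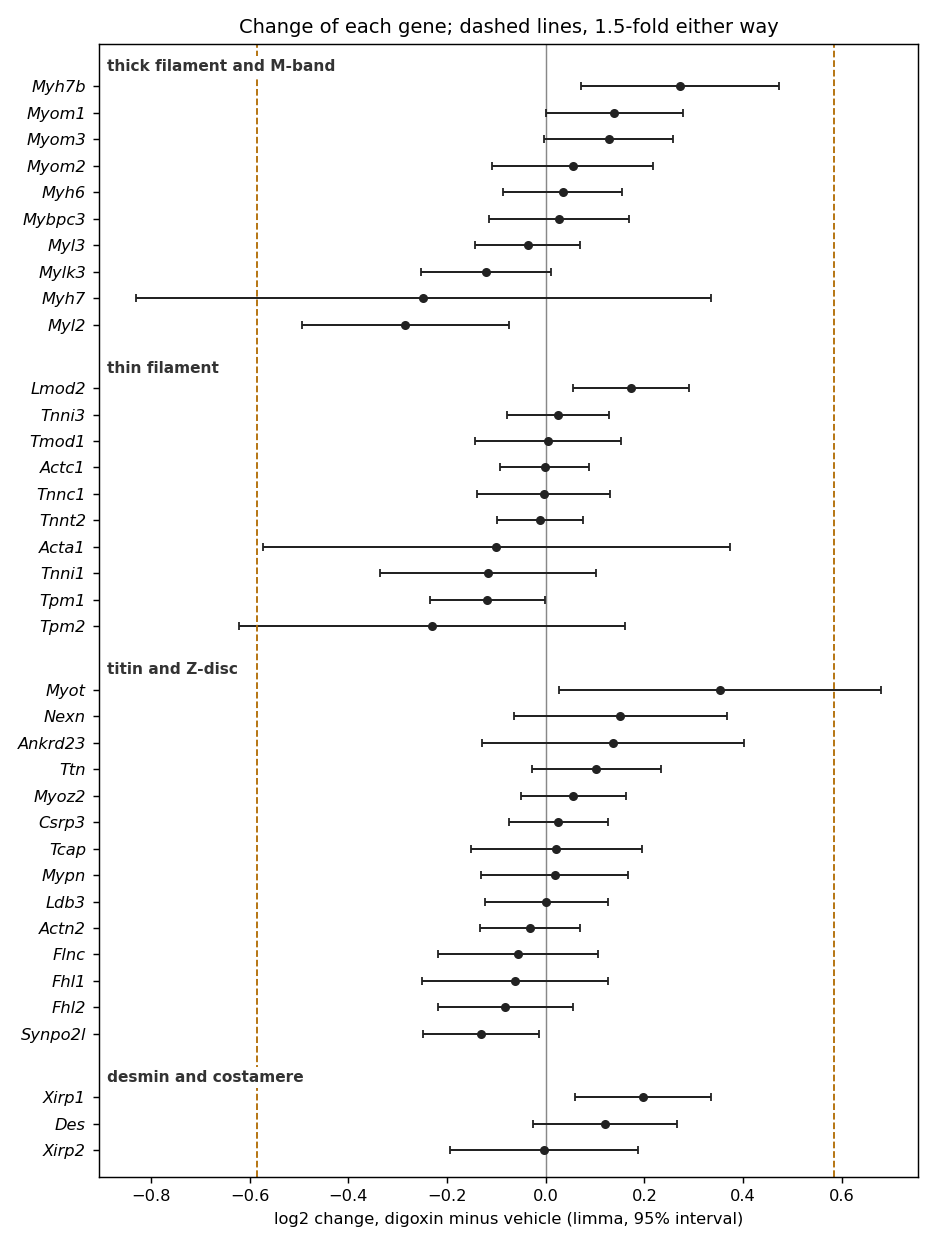
Log2 change of each of the 37 genes, digoxin minus vehicle, from limma (points) with its 95% interval (bars), grouped by place in the sarcomere; dashed lines mark 1.5-fold either way. The intervals of 34 genes lie between the dashed lines, and those of Myh7, Tpm2 and Myot cross one of them.

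In the thick filament and M-band, 0 of 10 genes passed in limma, and the median log2 change was 0.03. The 10 genes split into 6 with higher and 4 with lower means in digoxin hearts.

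Myl2, the regulatory light chain of ventricular myosin, had the lowest change of the 37. Its centred log2 values were -0.38, -0.02, -0.13, -0.22 and -0.03 on digoxin arrays 1 to 5 and 0.12, 0 and 0.26 on vehicle arrays 1 to 3. Every digoxin array was below every vehicle array, but digoxin replicates 2 and 5 lay close to vehicle replicate 2. The mean was -0.16 ± 0.15 (SD, n = 5) against 0.13 ± 0.13 (SD, n = 3), a log2 change of -0.28 (SE 0.09, adjusted p = 0.244 in limma). Without vehicle replicate 3 it was -0.22. Mylk3, the cardiac kinase that phosphorylates this light chain, read -0.10, 0.05, -0.04, 0.05 and -0.0098 after digoxin and 0.21, 0.12 and 0.0088 after vehicle. Its groups overlapped through vehicle replicate 3, and the log2 change was -0.12 (SE 0.06, adjusted p = 0.448 in limma). Myl3, the essential light chain, stood at -0.04 (95% interval -0.14 to 0.07).

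Myh6 encodes alpha-myosin heavy chain, the main motor of the adult mouse heart, and Myh7 encodes beta-myosin, the slower fetal form that returns under load. Myh6 was steady after digoxin, at 0.02, 0.01, 0.01, -0.01 and 0.03, and read 0.05, -0.16 and 0.04 after vehicle, where replicate 2 was low. Its log2 change was 0.03 (95% interval -0.09 to 0.15, adjusted p = 0.837 in limma). Myh7 had the widest range of the 37 genes, 1.05 over the 8 arrays. It read -0.15, 0.56, 0.0064, 0.67 and -0.34 after digoxin and 0.48, 0 and 0.71 after vehicle. High and low values occurred in both groups, and the change of -0.25 had a 95% interval of -0.83 to 0.33 (adjusted p = 0.741 in limma).

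Myh7b, a related slow myosin gene, read 0.33, 0.18, 0.10, -0.04 and 0.27 on the digoxin arrays and 0.02, -0.20 and -0.13 on the vehicle arrays. Digoxin replicate 4 alone lay in the vehicle range, and the log2 change was 0.27 (SE 0.09, adjusted p = 0.244 in limma). Without digoxin replicate 4 the change was 0.32 (adjusted p = 0.118). Myosin-binding protein C (Mybpc3), which tunes cross-bridge cycling, stood at 0.03 (95% interval -0.12 to 0.17).

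The M-band genes encode myomesins, the crosslinkers of neighbouring thick filaments. Myom1 read 0.08, 0.05, 0.03, -0.12 and 0.02 after digoxin and -0.01, -0.19 and -0.18 after vehicle. Digoxin replicate 4 again lay among the vehicle arrays, and the log2 change was 0.14 (SE 0.06, adjusted p = 0.407 in limma). Myom3 read 0.06, 0.04, 0, -0.03 and -0.07 after digoxin and -0.17, -0.20 and 0.0008 after vehicle, a change of 0.13 (SE 0.06). Here vehicle replicate 3 overlapped the digoxin arrays, and without it the change was 0.19 (adjusted p = 0.116). Myom2, the myomesin of fast and adult fibres, stood at 0.05 (95% interval -0.11 to 0.22).

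**Figure D2:**
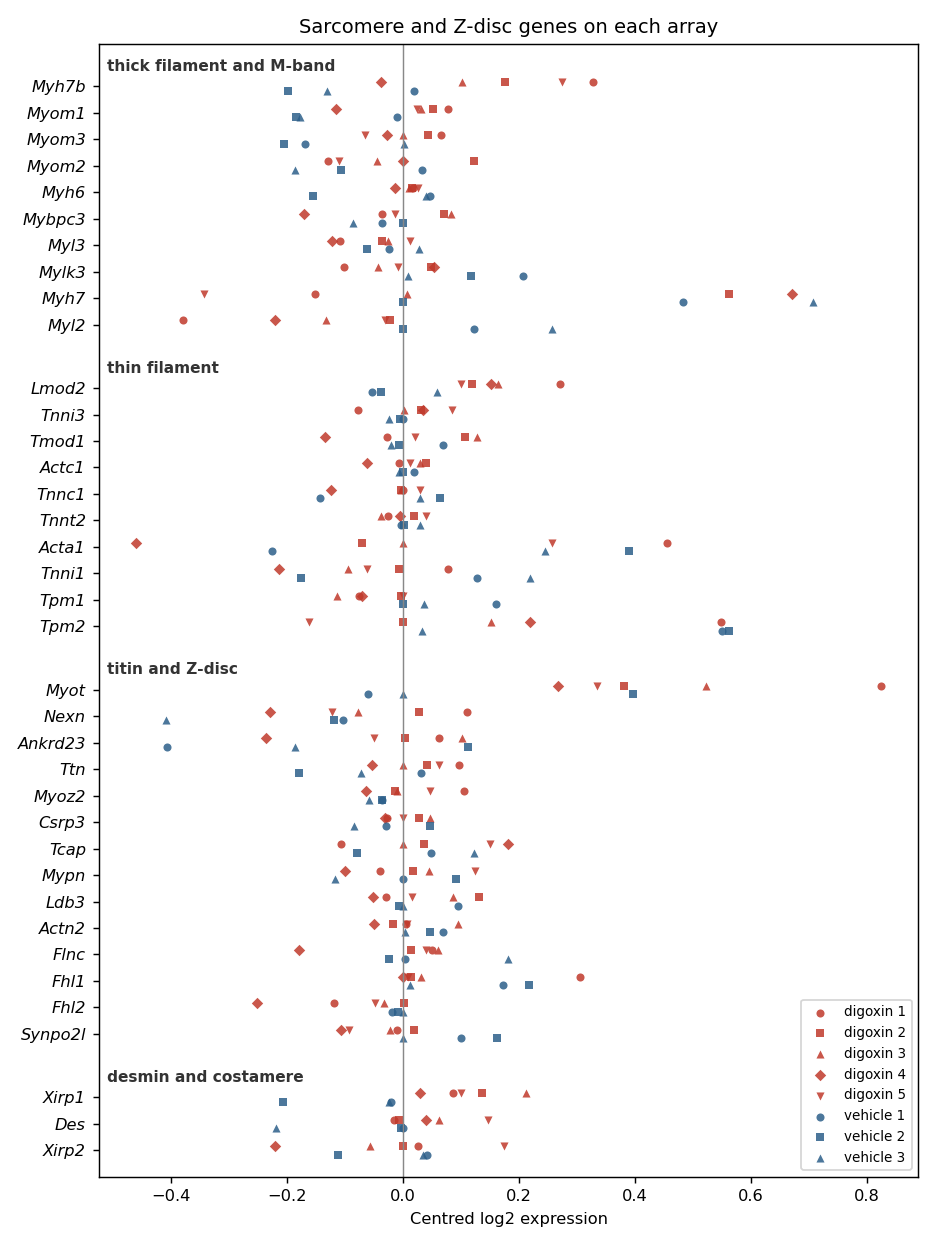
Centred log2 expression of each of the 37 genes on every array; red symbols are the 5 digoxin arrays and blue symbols the 3 vehicle arrays, with 1 symbol shape per replicate number. Red and blue overlap in all genes but Lmod2, Xirp1 and Myl2, and Myh7, Acta1, Myot and Tpm2 have the widest spread.

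In the thin filament, 0 of 10 genes passed, the median log2 change was -0.0076, and 3 means were higher and 7 lower. Lmod2 encodes leiomodin 2, which lengthens actin filaments at their pointed ends. It read 0.27, 0.12, 0.16, 0.15 and 0.10 on the digoxin arrays and -0.05, -0.04 and 0.06 on the vehicle arrays, with no overlap between the groups. The mean was 0.16 ± 0.07 (SD, n = 5) against -0.01 ± 0.06 (SD, n = 3), a change of 1.13-fold (log2 0.17, SE 0.05, adjusted p = 0.202 in limma). The adjusted p was 0.122 without vehicle replicate 3. Tmod1, the tropomodulin that caps the same pointed ends, stood at 0.0047 (95% interval -0.14 to 0.15).

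Actc1, cardiac actin, and Tnnt2, cardiac troponin T, had the narrowest ranges of the 37 genes. Actc1 read -0.0069, 0.04, 0.03, -0.06 and 0.01 after digoxin and 0.02, 0 and -0.0067 after vehicle, a range of 0.10 over the 8 arrays. Its log2 change was -0.002 (95% interval -0.09 to 0.09, adjusted p = 0.992 in limma). Tnnt2, the troponin subunit that binds tropomyosin, had the smallest range, 0.08, and a change of -0.01 (95% interval -0.10 to 0.08). Tnnc1, the calcium sensor, stood at -0.004 (95% interval -0.14 to 0.13). Tnni3, the inhibitory subunit, read -0.08, 0.03, 0.0009, 0.03 and 0.08 after digoxin and 0, -0.0056 and -0.03 after vehicle, with a change of 0.02 (95% interval -0.08 to 0.13).

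Acta1 and Tnni1, forms of the fetal heart and of skeletal muscle, had wider ranges over the 8 arrays, 0.92 and 0.43. Acta1, skeletal alpha-actin, read 0.46, -0.07, 0, -0.46 and 0.26 after digoxin and -0.23, 0.39 and 0.24 after vehicle. The highest and the lowest of these values were both on digoxin arrays, replicates 1 and 4, and the change was -0.10 (95% interval -0.57 to 0.37). Tnni1, slow skeletal troponin I, read 0.08, -0.0078, -0.10, -0.21 and -0.06 after digoxin and 0.13, -0.18 and 0.22 after vehicle, a change of -0.12 (95% interval -0.34 to 0.10).

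Tropomyosin lies along the actin filament and is moved by troponin. Tpm1, the alpha form of the heart, read -0.08, -0.0042, -0.11, -0.07 and 0 after digoxin and 0.16, 0 and 0.04 after vehicle. The groups touched between digoxin replicate 5 and vehicle replicate 2, and the log2 change was -0.12 (SE 0.05, adjusted p = 0.395 in limma). Tpm2, the beta form, read 0.55, 0, 0.15, 0.22 and -0.16 after digoxin and 0.55, 0.56 and 0.03 after vehicle. The 3 high arrays were digoxin replicate 1 and vehicle replicates 1 and 2, and the change was -0.23 (95% interval -0.62 to 0.16). Digoxin replicate 1 also had the highest mean of 10 smooth muscle markers, 0.47, and vehicle replicates 1 and 2 the highest atrial marker means, 2.16 and 1.67. The part of these markers in the spread of Tpm2 was not tested. Its change was -0.03 with the atrial mean as a covariate, -0.40 with array weights, -0.42 when both digoxin replicate 4 and vehicle replicate 3 were omitted, and -0.41 to -0.14 with 1 array left out. It passed in none of these fits.

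Isoform partners were compared within each array, where the centring constant of each gene cancels in the difference between groups. The 4 pairs each set a fetal, slow or skeletal form against its adult cardiac partner. After digoxin, Myh7 minus Myh6 averaged 0.14 ± 0.46 (SD, n = 5), and after vehicle 0.42 ± 0.26 (SD, n = 3), a difference of -0.28 (exact two-sided permutation p = 0.357). Acta1 minus Actc1 averaged 0.03 ± 0.33 (SD, n = 5) and 0.13 ± 0.33 (SD, n = 3), a difference of -0.10 (exact permutation p = 0.696). The sarcomeric actins are nearly identical proteins, and cross-hybridisation between the probes of their genes was not tested.

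For Tnni1 minus Tnni3 the means were -0.07 ± 0.15 (SD, n = 5) and 0.07 ± 0.21 (SD, n = 3), a difference of -0.14 (exact permutation p = 0.321). For Tpm2 minus Tpm1 they were 0.20 ± 0.30 (SD, n = 5) and 0.32 ± 0.29 (SD, n = 3), a difference of -0.11 (exact permutation p = 0.589). The groups overlapped in each of the 4 pairs, and no difference exceeded in size the SD of its digoxin group. The difference of -0.28 in Myh7 minus Myh6 was larger in size than the vehicle SD of 0.26. With 1 array left out, the difference ran from -0.42 (without digoxin replicate 4) to -0.16 (without digoxin replicate 5) for Myh7 minus Myh6. It ran from -0.29 (without vehicle replicate 1) to 0.03 (without vehicle replicate 2) for Acta1 minus Actc1. For Tnni1 minus Tnni3 it ran from -0.26 (without vehicle replicate 2) to -0.05 (without vehicle replicate 3), and for Tpm2 minus Tpm1 from -0.27 (without vehicle replicate 3) to 0.01 (without vehicle replicate 2). After adjustment over the 4 pairs each p was 0.696, where 0.0179 is the smallest unadjusted p that 56 assignments allow.

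**Figure D3:**
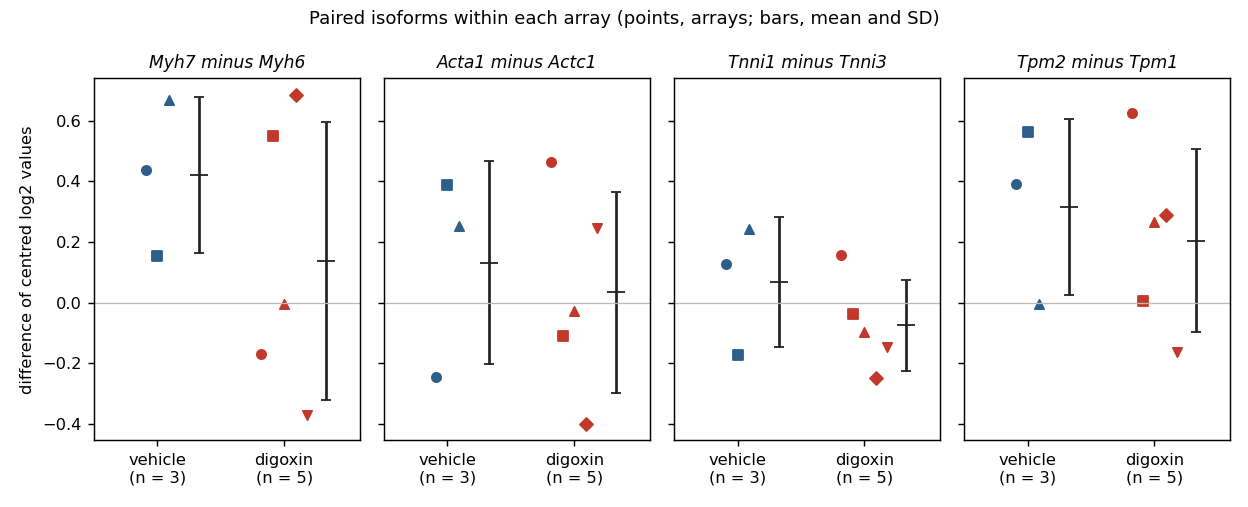
Difference of centred log2 values between isoform partners on each array (points; blue, vehicle; red, digoxin; 1 symbol shape per replicate number), with mean and SD beside each group. The zero of each panel has no meaning of its own. The groups overlap in each of the 4 pairs.

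In titin and the Z-disc, 0 of 14 genes passed, the median log2 change was 0.02, and 9 means were higher and 5 lower. Ttn encodes titin, the molecular spring from Z-disc to M-band. It read 0.10, 0.04, 0, -0.05 and 0.06 after digoxin and 0.03, -0.18 and -0.07 after vehicle. The groups overlapped, and the log2 change was 0.10 (SE 0.06, adjusted p = 0.522 in limma).

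Myot encodes myotilin, which binds alpha-actinin and filamin C. It read 0.82, 0.38, 0.52, 0.27 and 0.33 on the digoxin arrays and -0.06, 0.40 and 0 on the vehicle arrays. Vehicle replicate 2 lay inside the digoxin range, and digoxin replicate 1 was the highest array. The change of 0.35 was the largest of the 37, with a 95% interval of 0.03 to 0.68 and an adjusted p of 0.361 in limma. It was 0.50 without vehicle replicate 2 and 0.26 without digoxin replicate 1, and passed in neither fit. Synpo2l, a heart-enriched actin-binding Z-disc protein gene, read -0.01, 0.02, -0.02, -0.11 and -0.09 after digoxin and 0.10, 0.16 and 0 after vehicle, a change of -0.13 (SE 0.05, adjusted p = 0.350 in limma). Vehicle replicate 3 overlapped the digoxin arrays.

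The core crosslinker alpha-actinin 2 (Actn2) stood at -0.03 (95% interval -0.13 to 0.07), and Ldb3, whose product Cypher binds it, at 0.0013 (95% interval -0.12 to 0.13). The titin cap gene Tcap stood at 0.02, the muscle LIM protein gene Csrp3 at 0.03 and the calsarcin gene Myoz2, which tethers calcineurin, at 0.06. Mypn, the gene of the nebulin-binding myopalladin, stood at 0.02 and Flnc, the muscle filamin, at -0.06. The LIM genes Fhl1 and Fhl2 stood at -0.06 and -0.08. Each of these 9 genes had an adjusted p of at least 0.630. Nexn, an actin-binding Z-disc gene, stood at 0.15 (95% interval -0.06 to 0.37), and Ankrd23, of the titin-binding ankyrin repeat family, at 0.14 (95% interval -0.13 to 0.40), both with values that spread over 0.52 across the arrays.

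In desmin and the Xin-repeat genes, 0 of 3 passed. Xirp1 encodes Xin, an actin-bundling protein of the intercalated disc. It read 0.09, 0.14, 0.21, 0.03 and 0.10 after digoxin and -0.02, -0.21 and -0.03 after vehicle, with no overlap. The mean was 0.11 ± 0.07 (SD, n = 5) against -0.08 ± 0.11 (SD, n = 3), a change of 1.15-fold (log2 0.20, SE 0.06, adjusted p = 0.210 in limma). Des, the gene of the intermediate filament desmin, read -0.02, -0.0069, 0.06, 0.04 and 0.15 after digoxin and 0, -0.0044 and -0.22 after vehicle. Vehicle replicate 3 was the low array, and the log2 change of 0.12 (SE 0.06, adjusted p = 0.503 in limma) was 0.05 without it. Xirp2, the paralogue of Xirp1, stood at -0.0034 as the mean of probe sets at -0.06 and 0.06.

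The extreme values of the 37 genes lay most often on digoxin replicates 4 and 1. Digoxin replicate 4 held the highest or lowest of the 8 values in 15 genes (40.5%, against 27.5% of all genes), and in 14 of these it was the lowest. That array also had the lowest ventricular marker mean of the 8 arrays, -0.10, and the highest atrial marker mean of the digoxin arrays, 1.54. The part of these markers was not tested. Digoxin replicate 1 held an extreme in 14 (37.8%, against 18.1%). Vehicle replicate 3, the array of widest spread, held an extreme in 10 of the 37 (27.0%) and in 54.4% of all genes. These shares are descriptions with no test. The median of the 37 genes on an array ran from -0.05 on digoxin replicate 4 to 0.02 on digoxin replicate 2.

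**Figure D4:**
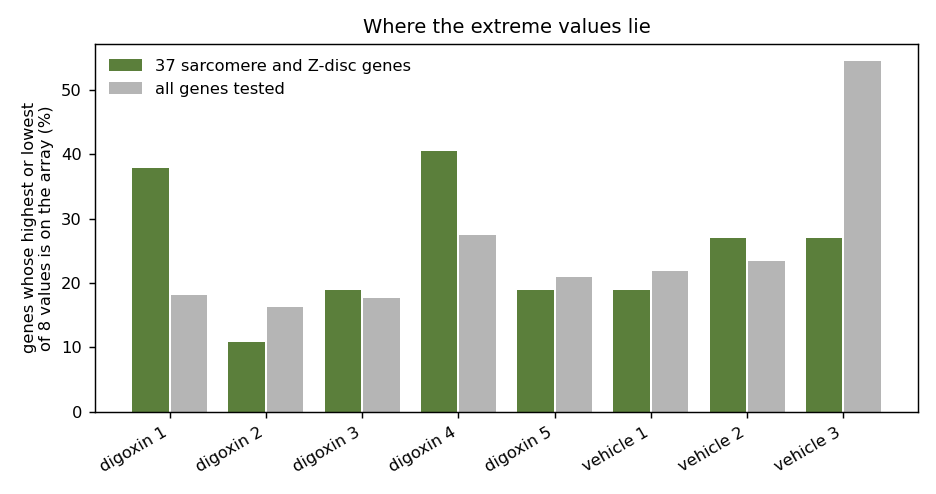
Share of genes, in percent, whose highest or lowest of 8 values lies on each array, for the 37 sarcomere and Z-disc genes (green) and all 22180 genes (grey). Digoxin replicates 4 and 1 lead among the 37 genes at 40.5% and 37.8%, and vehicle replicate 3 leads among all genes at 54.4%.

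Genes around the sarcomere were read from 5 further lists. Over all genes, 0.947% rose and 0.415% fell. Of 24 measured transcription and splicing factors of sarcomere genes, 1 rose. This was Mrtfb, a myocardin-related coactivator of serum response factor, which read 0.11, 0.25, 0.35, 0.40 and 0.30 after digoxin and -0.0075, -0.09 and -0.13 after vehicle. The groups did not overlap, and the log2 change was 0.36 (SE 0.07, adjusted p = 0.0450 in limma), the mean of probe sets at 0.45 and 0.27. The call was kept without digoxin replicate 1 and lost in the other 7 fits that left out 1 array (highest adjusted p = 0.134, without vehicle replicate 2). At an unadjusted p under 0.05 this list held 8 of 24 genes (33.3%, against 12.3% of all genes), 3 with higher and 5 with lower means in digoxin hearts, and the groups did not overlap in 7 (29.2%, against 8.16% of all genes). The list was chosen with earlier results of these data known, so these shares are descriptions with no test. The Mrtfb partner Srf stood at -0.02 (adjusted p = 0.952 in limma) and the paralogue Mrtfa at 0.0089 (adjusted p = 0.967). Myocd, the myocardin gene, had the opposite direction to Mrtfb, at -0.24 (adjusted p = 0.157). Its groups did not overlap. The 7 member genes with a CArG box in the promoter window had changes between -0.10 (Acta1) and 0.14 (Myom1), and 0 of them passed.

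Of 23 measured genes of sarcomere assembly, chaperoning and turnover, 1 rose, the muscle ubiquitin ligase Fbxo32 (log2 change 0.50, SE 0.08, adjusted p = 0.0227 in limma). It read 0.10, 0.18, 0.35, 0.12 and 0.37 after digoxin and -0.17, -0.27 and -0.40 after vehicle, and its call was lost in 5 of the 8 fits that left out 1 array (highest adjusted p = 0.0823, without vehicle replicate 2; also without vehicle replicate 3 and digoxin replicates 2, 3 and 5). When the mean of the atrial markers was added to the model its adjusted p was 0.0531. At an unadjusted p under 0.05 this list held 4 of 23 genes (17.4%, against 12.3% of all genes). Its groups did not overlap in 2 genes (8.7%, against 8.16% of all genes). The median change of this list was 0.0076, and that of the transcription factors -0.02.

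None passed among 25 genes of the costamere, the dystrophin complex and integrin linkage (median 0.06), where Vcl, the gene of the membrane linker vinculin, stood at 0.27 (adjusted p = 0.0988 in limma) and Dtna, of the dystrophin complex, at 0.21 (adjusted p = 0.322). Vcl passed with array weights (adjusted p = 0.0243). None passed among 21 other Z-disc, titin-binding and M-band genes (median -0.02), with Synpo2 at 0.17 (adjusted p = 0.179) and Palld, an actin-bundling gene, at -0.24 (adjusted p = 0.238). None passed among 18 skeletal and embryonic filament isoforms (median -0.05), with the fast myosin gene Myh2 at -0.23 (adjusted p = 0.134) and the fast troponin gene Tnnt3 at -0.19 (adjusted p = 0.510). At an unadjusted p under 0.05 these 3 lists held 3 (12.0%), 4 (19.0%) and 1 (5.56%) of their genes, against 12.3% of all genes. The 10 markers of ventricular cardiomyocytes and excitation had a median of 0.02 and none passed, and their mean ran from -0.10 to 0.04 on the digoxin arrays and from -0.09 to 0.02 on the vehicle arrays. None passed among 10 markers each of smooth muscle, fibroblasts, endothelium and macrophages or the 1 erythroid marker measured.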

How the data were processed

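Per the series design text, the authors normalised the arrays with Robust Multi-Average; the submitters' processing notes name limma. For tool versions, none is given in the sources used here. Values were deposited by the authors as log2, centred for each probe set, with column medians between -0.0058 and 0.0087; what the centre refers to is not stated, and the log base is taken from the method. Direction is not at issue, since each array holds 1 sample. A filter on dim genes needs absolute levels and was not run.

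Of 34351 probe sets, 23521 had exactly 1 symbol in the platform annotation and were averaged to 22180 genes; 1 further Des probe set with several symbols was left out. The groups were fitted in R 4.3.3 using limma 3.58.1 (lmFit, eBayes, two-sided, Benjamini-Hochberg over all genes, threshold 0.05, 6 residual and 2.75 prior degrees of freedom). Array weights, robust variances, quantile normalization, the replicate block and left-out arrays were alternatives; the atrial marker mean as covariate was added after seeing the data. The fit was tested on simulated data. Isoform pairs were compared with an exact permutation test over all 56 assignments.

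The members and lists were chosen with earlier results of these data known. Named with values on each array were the 12 members of lowest p and the 8 genes of the pairs (19 in all, as Tpm1 is in both), and, of other lists, genes past the test or the 2 of lowest p. Other genes named (Srf, Mrtfa, Myocd, Nr2f2, further members) were picked with their values known. The array file names put vehicle before digoxin, so the order of the arrays and the treatment cannot be told apart, and they number replicates otherwise than the titles, which are used here. Arrays with the same number in their titles deviated from their group means with correlations of -0.20, -0.02 and 0.02. With so few arrays these values cannot settle whether samples were paired, and the numbering of the file names was not checked. Promoter sequences are from RefSeq (GRCm38.p6).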

Additional observations from a re-analysis of the deposited data

Results flagged for a closer look

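In the digoxin group, 4 of the 37 genes had 1 array far from the other four by Dixon's criterion for groups of 5, which chance meets in about 1 of 20 groups. Of these, 3 were on digoxin replicate 4. The M-band gene Myom1 read -0.12 there against 0.02 to 0.08 on the other digoxin arrays. Tnnc1, cardiac troponin C, read -0.12 against -0.004 to 0.03. Flnc, the muscle filamin, read -0.18 against 0.01 to 0.06. Digoxin replicate 4 also had the lowest ventricular marker mean of all arrays, -0.10, and the part of these markers was not tested. The remaining one was Fhl1, a LIM protein gene, which read 0.31 on digoxin replicate 1 against 0 to 0.03. That array also had the highest smooth muscle marker mean, 0.47, and the part of these markers was not tested. Vehicle groups of 3 were not tested. The share of all genes that meet the criterion was not computed, so these flags cannot be called particular to sarcomere genes.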

How the results depend on the processing

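The count of sarcomere genes past the test was 0 with all alternatives but array weights, which gave 1 (Xirp1), and 0 in each fit that left out 1 array. The count over all genes was 302; it was 614 with array weights, 500 without digoxin replicate 4 and vehicle replicate 3 together, 493 at an adjusted p under 0.1, and 166 to 374 with 1 array left out (170, 174, 166 and 169 without digoxin replicates 2, 3 and 5 and vehicle replicate 2). The median log2 change of the 37 genes stayed between -0.0082 and 0.03. The replicate number as a block left 2 residual degrees of freedom and gave 12 changed genes and 0 sarcomere genes. The 19 named members changed sign in 15 of 342 results, 1 per gene and setting, with no call in any of those. Some settings leave each of these changes as it was and could not alter a sign. These are robust variances, the threshold of 0.1, each probe set on its own, and genes with 1 probe set alone. Acta1 minus Actc1 and Tpm2 minus Tpm1 lay near 0 in some fits (-0.29 to 0.07 and -0.29 to 0.01), without a p under 0.05. The number of arrays limits the precision, and signal over background is unknown in centred values.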
